A study of Homo sapiens with 8 samples.

Results

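The DLK1-DIO3 region on human chromosome 14 carries a long tandem array of microRNA (miRNA) hairpins, and its downstream group, from miR-379 to miR-656, was examined in 4 cancer-derived cell lines by small RNA sequencing. The group was taken as 41 mature miRNAs out of 2588 named in the deposited table. They were found there as chromosome 14 entries bearing one of the 41 names, and entries that share a name were summed. The 41 names come from 43 entries, because miR-329-3p and miR-376a-3p each have 2 genomic copies. The names were chosen by their normalised read level in A-549, next to their place on chromosome 14, so levels in A-549 and differences between A-549 and the other lines are given as a description, without p values, and nothing is read from how many members passed a threshold in those pairs.

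The libraries were made from total RNA of ES-2 (ovarian cancer), MV-3 (melanoma), Huh-7 (hepatocellular carcinoma) and A-549 (lung adenocarcinoma), with 2 replicate libraries per line and 8 in all. All 4 lines were parental cells without genetic change or treatment, grown in the same medium and harvested 48 h after seeding. Each group is a single established line, so a difference between lines is one between these cultures and not between tumour types. The authors call the 2 libraries of a line biological replicates, without further detail on how the cultures were kept apart. Hence p values measure only the spread between libraries of the same line, pooled over the 4 lines. A library held 1173902 to 2670030 miRNA reads. Levels are given as normalised CPM, that is, reads per 1000000 after the trimmed mean of M values (TMM) scaling of the authors, and 1 read was worth 0.282 to 0.818 normalised CPM depending on the library. The hepatocyte miRNA miR-122-5p marked Huh-7 with 288469 and 252449 reads. The melanocyte-lineage miRNA miR-211-5p had 0 reads in both MV-3 libraries, so that label was not borne out by its marker. Of the 5 epithelial miRNAs of the miR-200 family, 4 were found in A-549, whereas miR-141-3p had 0 and 1 reads there. The same 4 were found at similar or higher levels in Huh-7, so they do not set A-549 apart from that line. For example, miR-200b-3p had 1305 and 1403 normalised CPM in A-549 and 1847 and 1859 in Huh-7, and miR-429 had 126 and 82.6 against 220 and 165.

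miRNAs are cut from hairpin precursors, and either strand of the hairpin, the 5p or the 3p arm, can be loaded into an Argonaute protein and guide it to target mRNAs. Pairing rests largely on the seed, bases 2 to 8 from the 5′ end. The miR-379 to miR-656 hairpins are clustered within the imprinted DLK1-DIO3 region, where the long non-coding RNAs MEG3, MEG8 and MEG9 and the miRNAs are expressed from the maternal chromosome and DLK1, RTL1 and DIO3 from the paternal one. Expression of the group is best known from placenta, embryo and brain, and miR-134 of this group is known for restraining the growth of dendritic spines in neurons.

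The 8 members with the highest level in A-549 are shown first because they carried most of the reads of the group. Mature sequences are those of RefSeq on GRCh38.p14, printed 5′ to 3′ with the seed in capitals, and 40 of the 41 members had one. No sequence was matched for hsa-miR-668-3p. In the text the prefix hsa-, for human, is left out.
hsa-miR-369-3p: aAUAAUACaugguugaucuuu
hsa-miR-409-3p: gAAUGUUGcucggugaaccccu
hsa-miR-487b-3p: aAUCGUACagggucauccacuu
hsa-miR-543: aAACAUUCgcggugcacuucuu
hsa-miR-379-5p: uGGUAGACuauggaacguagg
hsa-miR-494-3p: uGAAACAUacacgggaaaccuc
hsa-miR-654-3p: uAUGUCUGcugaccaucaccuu
hsa-miR-382-5p: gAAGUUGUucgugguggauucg

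None of these 8 shared its seed with another of the 8. Among the 40 members there were 37 different seeds, and 3 of these were held by a pair of members each. The pairs are shown because members of a pair would be read as one family by seed pairing.
hsa-miR-379-3p: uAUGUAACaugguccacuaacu
hsa-miR-411-3p: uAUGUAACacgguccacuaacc
hsa-miR-154-3p: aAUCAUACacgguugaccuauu
hsa-miR-487a-3p: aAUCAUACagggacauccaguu
hsa-miR-376a-3p: aUCAUAGAggaaaauccacgu
hsa-miR-376b-3p: aUCAUAGAggaaaauccauguu

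The paired members lay at unlike levels. In A-549, miR-411-3p had 147 ± 37.7 normalised CPM (SD, n = 2, as for all values with ±) beside 50.1 ± 9.0 for miR-379-3p. For the second pair, miR-154-3p reached 74.9 ± 2.94 and miR-487a-3p 18.0 ± 9.31. In the miR-376 pair, miR-376a-3p reached 76.3 ± 9.60 and miR-376b-3p 3.49 ± 3.77, and the latter rested on 11 reads. A further 9 members shared a seed with a mature miRNA outside the 41. The highest of these in A-549 was miR-539-3p, 44.7 ± 16.9 normalised CPM, which has the seed UCAUACA of miR-485-3p and comes from the same cluster. Next came miR-362-3p, encoded elsewhere, which has the seed ACACACC of miR-329-3p and had 8.18 ± 8.09 normalised CPM in A-549, against 34.4 and 33.1 in the Huh-7 libraries.

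Short stretches of sequence recurred among the members, some beyond the seed and some within it. These motifs were picked after the sequences had been read, and each was searched as printed on the mature strand only. GGUCCAC stood wholly after base 8 in 4 of 40 members (10%; miR-379-3p, miR-411-3p, miR-380-3p and miR-758-3p), against 2 of 2330 other mature names (0.0858%). ACCUCU stood after base 8 in 5 members (12.5%; miR-323a-3p, miR-323b-3p, miR-329-3p, miR-655-3p and miR-656-3p), against 0.172% of the others. AUACA was found anywhere in 10 members (25%; 1.29% of the others) and CACGG in 7 (17.5%; 0.858%), but these mostly overlapped the seed, and after base 8 each stood in 1 member only (2.5%), miR-299-5p for AUACA and miR-494-3p for CACGG. Another motif searched, AGGUU, was found in 2 members (5%), 0 of them after base 8, and in 2.45% of the others. Mature members were 21 to 23 bases long with a median GC content of 45.5%, while that over all 2370 names with a sequence was 52.2%.

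The 40 placed members came from 33 hairpins on the plus strand of chromosome 14, chr14:101022071-101066786 in GRCh38.p14. This stretch of 44.7 kb also holds hairpins without a member. By the GENCODE annotation, hairpins from miR-379 to miR-495 lay in introns of the long non-coding RNA gene MEG8. The hairpins of miR-376c, miR-376a, miR-654 and miR-376b lay between MEG8 and MEG9, and those from miR-381 to miR-656 lay within MEG9, where miR-487a, miR-382 and miR-134 overlapped an exon. The level in A-549 showed no gradient along this stretch, with a Pearson correlation of -0.10 between position and log2 level over the 40 placed members, which share libraries and neighbouring hairpins. Summed levels of the 4 consecutive groups of 10 members were 2104, 4148, 1758 and 3130 normalised CPM.

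**Figure D1:**
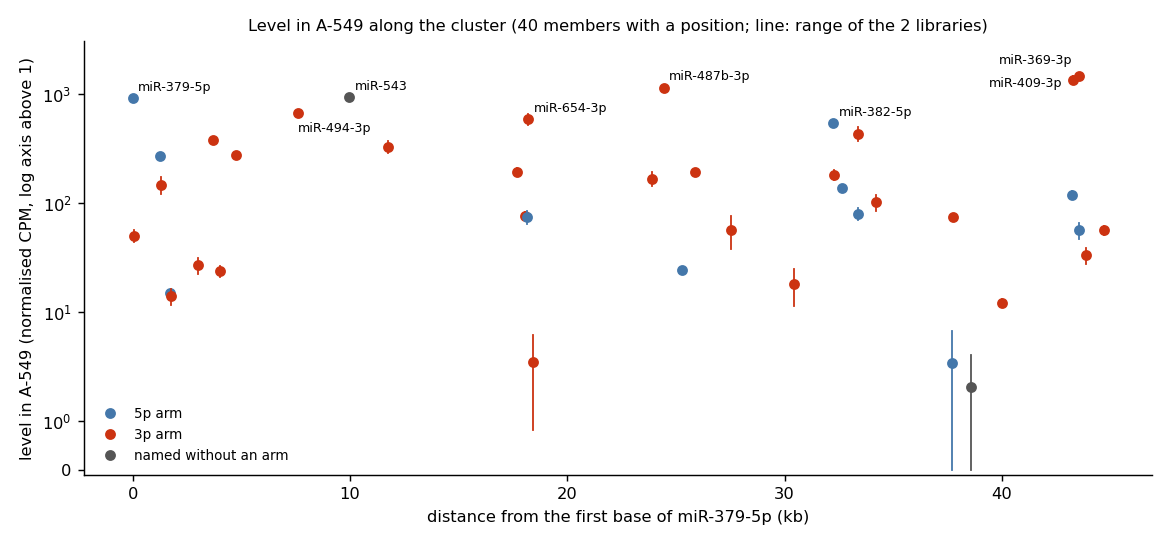
Mean level of 40 members in A-549 (normalised CPM, log axis above 1) against the distance in kb of each member from the first base of miR-379-5p, coloured by hairpin arm, with a line for the range of the 2 libraries. The 8 highest members, named in the plot, are spread from 0 to 44 kb, and the members just beside them differ from them by more than 10-fold in places.

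In A-549, the summed group had 18218 and 13533 reads in replicates 1 and 2, which is 0.682% (95% exact binomial interval 0.672 to 0.692%) and 0.657% (0.646 to 0.668%) of all miRNA reads. Intervals cover counting error only, since reads without molecular identifiers are not independent molecules. This corresponds to 11214 and 11068 normalised CPM, a mean of 11141 ± 103. The mean was 282 times that in ES-2, 118 times that in Huh-7 and 45.0 times that in MV-3. Set against single libraries, it was 1459 and 156 times the level in the ES-2 replicates, 618 and 65.2 times that in Huh-7 and 44.4 and 45.6 times that in MV-3, so the first 2 ratios rest on replicates that lie far apart. TMM factors differed between lines, and with scaling to library size alone the same ratios were 199, 41.8 and 23.2.

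**Figure D2:**
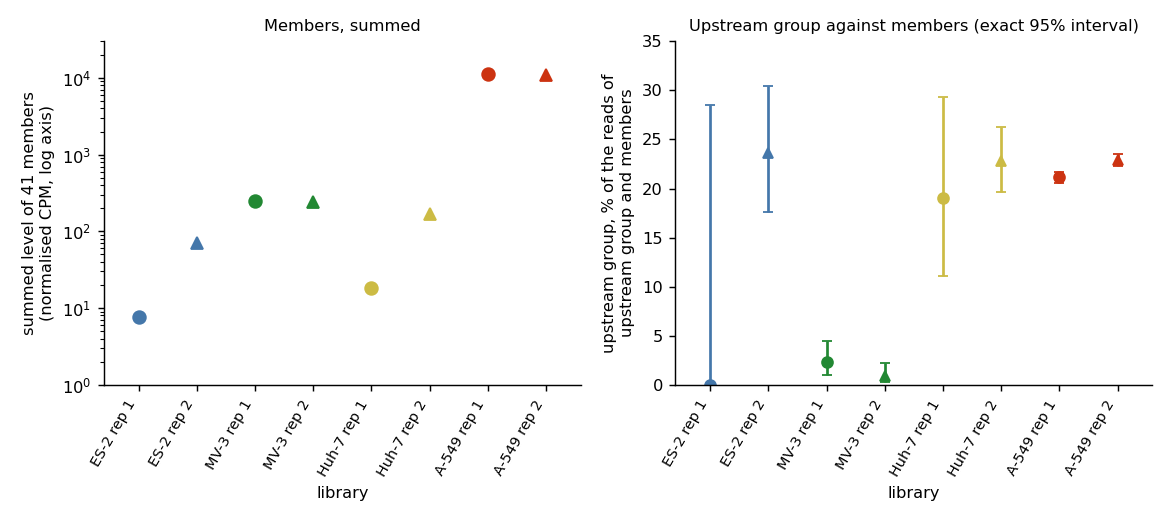
Left, summed level of the 41 members in each of the 8 libraries (normalised CPM, log axis). Right, reads of the upstream group of the same locus as a percentage of the reads of upstream group and members together, with exact 95% binomial intervals. The A-549 libraries lie at 11214 and 11068 normalised CPM, the ES-2 and Huh-7 replicates lie 9-fold apart while the MV-3 replicates overlap, and the MV-3 libraries have the lowest upstream share apart from ES-2 replicate 1, where it rests on 11 reads.

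Levels within the group spanned 0.616 to 1432 normalised CPM in A-549, with a median of 101. Of the 41 members, 3 reached 1000, 21 reached 100 and 37 reached 10 normalised CPM, and 10 were among the 100 most abundant miRNAs of the line. The 8 highest members held 66.7% and 68.5% of the reads of the group in the 2 libraries.

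Among these, miR-369-3p was the highest, with 1377 and 1488 normalised CPM (1432 ± 78.2), and ranked 51st among all miRNAs of A-549. It lies at chr14:101065641-101065661. Outside A-549 its reads numbered 8 and 14 in the ES-2 libraries, 54 and 53 in MV-3 and 18 and 39 in Huh-7. It was the only member above 3 reads in all 8 libraries, and the A-549 values did not overlap those of any other line.

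The neighbouring hairpin gives miR-409-3p, at chr14:101065346-101065367, which had 1250 and 1434 normalised CPM in A-549 (1342 ± 131). Its reads elsewhere were 0 and 17 in ES-2, 79 and 41 in MV-3 and 4 and 57 in Huh-7. The ES-2 and Huh-7 replicates thus differed by far more than those of A-549.

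miR-487b-3p, at chr14:101046505-101046526 within MEG9, had 1184 and 1082 normalised CPM in A-549 (1133 ± 72.3). Reads were 0 and 17 in ES-2, 27 and 61 in MV-3 and 1 and 47 in Huh-7. miR-543, at chr14:101032033-101032054 within an intron of MEG8, had 930.1 and 913 normalised CPM (921 ± 12.3). Its reads were 0 and 13 in ES-2, 30 and 55 in MV-3 and 2 and 53 in Huh-7. In both cases replicate 2 held all or nearly all reads of ES-2 and Huh-7.

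miR-379-5p, the first miRNA of the cluster at chr14:101022071-101022091, had 880 and 939 normalised CPM in A-549 (909.5 ± 41.5). It was read 0 and 5 times in ES-2, 20 and 52 times in MV-3 and 8 and 35 times in Huh-7. miR-494-3p had 691 and 649 normalised CPM in A-549 (669.9 ± 30.2), with 0 and 8 reads in ES-2, 19 and 6 in MV-3 and 1 and 21 in Huh-7. The higher MV-3 library was replicate 2 for miR-379-5p and replicate 1 for miR-494-3p.

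miR-654-3p had 649 and 520 normalised CPM in A-549 (584 ± 91.0), with 0 and 6 reads in ES-2, 6 and 20 in MV-3 and 1 and 16 in Huh-7. miR-382-5p had 520 and 559 normalised CPM (539 ± 27.2), with 1 and 5 reads in ES-2, 14 and 12 in MV-3 and 0 and 25 in Huh-7. These 2 members kept a gap of more than 10-fold to every library outside A-549.

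Another 13 members had a mean of at least 100 normalised CPM in A-549. They ran from miR-485-3p (430.4 ± 85.9), miR-323a-3p (375 ± 4.28) and miR-495-3p (326 ± 54.5) through miR-329-3p (274 ± 4.02), miR-411-5p (270.5 ± 3.14), miR-376c-3p, miR-889-3p, miR-382-3p, miR-381-3p, miR-411-3p, miR-134-5p (137 ± 3.57) and miR-409-5p to miR-323b-3p (101 ± 23.6). For miR-134-5p, the reads outside A-549 were 0 and 2 in ES-2, 1 and 0 in MV-3 and 0 and 5 in Huh-7.

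From 10 to 100 normalised CPM were miR-485-5p, miR-376a-3p, miR-154-3p, miR-654-5p, miR-655-3p, miR-656-3p, miR-369-5p, miR-379-3p, miR-410-3p, miR-380-3p, miR-539-5p, miR-758-3p, miR-487a-3p, miR-299-5p, miR-299-3p and miR-377-3p. The span was from 79.3 ± 13.8 for miR-485-5p to 12.1 ± 1.42 for miR-377-3p.

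The remaining 4 members were close to the floor of 3 reads. miR-376b-3p had 10 and 1 reads in A-549 and miR-154-5p had 11 and 0. miR-496 had 0 and 5 reads in A-549, 0 and 4 in MV-3, 0 and 1 in Huh-7 and 0 in both ES-2 libraries. miR-668-3p was read 2 and 0 times in A-549 and in no other library. miR-154-5p likewise had 0 reads in the 6 libraries of the other lines, which allows up to 3 reads in each, or 0.845 to 2.22 normalised CPM. These 4 members were thus low in A-549, although the level there was part of the choice. miR-539-3p, which is not a member, exceeded miR-410-3p (33.3 ± 7.76).

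**Figure D3:**
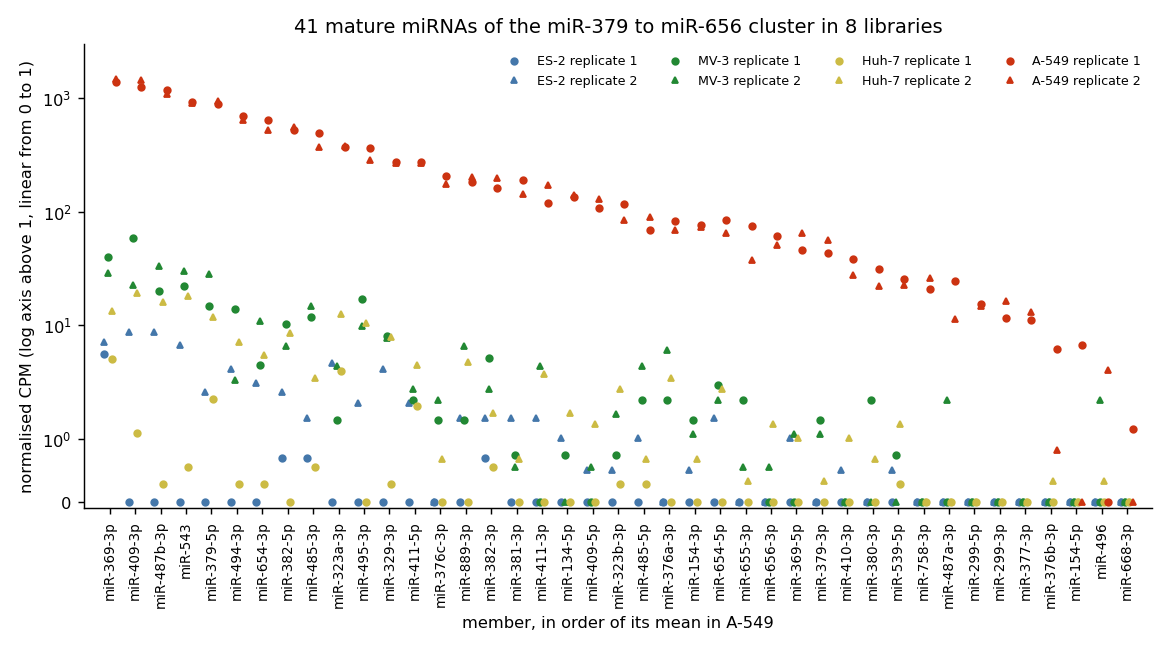
Level of each of the 41 members in the 8 libraries (normalised CPM, log axis above 1 and linear from 0 to 1), in order of the mean in A-549, with a colour per line and a symbol per replicate. The A-549 values fall smoothly from 1432 to 0.616, those of MV-3 stay below 60, and most points at 0 belong to ES-2 and Huh-7 replicate 1.

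The 3p arm prevailed in the group as a whole. In A-549, the 28 members from 3p arms held 71.8% of the reads, the 11 from 5p arms 19.9% and the 2 named without an arm (miR-543 and miR-496) 8.29%. Both arms were members for 9 hairpins, and here the ratio of 3p to 5p reads does not depend on scaling. In log2 units the ratio was 4.70 ± 0.28 for miR-369, 3.5 ± 0.03 for miR-409, 2.97 ± 0.05 for miR-654 and 2.44 ± 0.54 for miR-485. For the miR-154 hairpin, 125 and 89 reads fell on the 3p arm and 11 and 0 on the 5p arm.

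These are the hairpins for which both arms had been chosen. Over the 30 hairpins with both arms in the table and an arm among the members, the 3p arm had more A-549 reads in 24. Their median log2 ratio was 4.01 after adding 0.5 reads to each arm, beside 5 of 9 and a median of 2.49 for those with both arms chosen. Hairpins without a member were not counted, so this set rests on the same choice. Among these, miR-412 had 22 and 5 reads of the 5p arm and 2 and 1 of the 3p arm. miR-541 had 0 of the 5p arm and 6 and 1 of the 3p arm.

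The 5p arm was the higher one for miR-379 (-4.19 ± 0.19), miR-382 (-1.59 ± 0.14) and miR-411 (-0.91 ± 0.39). For miR-299 the arms were not told apart, with a log2 ratio of -0.12 ± 0.39. The neighbours miR-379 and miR-411, 1.27 kb apart, thus shared the direction, and so did miR-369 and miR-409 at the other end.

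Arm use could be followed outside A-549 for hairpins with at least 20 reads in a line. For miR-379 the 3p arm took 4.73% and 5.67% of reads in the A-549 libraries, 5.26% in MV-3 (exact 95% interval 1.45 to 12.9%) and 2.27% in Huh-7 (0.0575 to 12%). For miR-369 it took 96.8% and 95.8% in A-549, 98.2% in MV-3 (93.5 to 99.8%), 95% in Huh-7 (86.1 to 99.0%) and 91.7% in ES-2 (73.0 to 99.0%). The intervals of these lines include the A-549 values, so no difference in arm use was detectable at this depth.

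For miR-409, by contrast, the 3p share in MV-3 was 99.2% (95.5 to 99.98%), resting on 1 read of the 5p arm in 121, and its interval lay above the 92.0% (90.8 to 93.1%) and 91.8% (90.5 to 93.0%) of the A-549 libraries. In Huh-7 the share was 93.8% (85.0 to 98.3%). For miR-654 the 3p share was 88.4% and 89.0% in A-549, 76.5% in MV-3 (58.8 to 89.3%) and 68% in Huh-7 (46.5 to 85.1%), and the Huh-7 interval lay below the A-549 ones. Reads of both replicates were summed for these shares, and the spread between replicates was not part of the intervals. For miR-654 in Huh-7 nearly all reads came from replicate 2, with 0 and 8 of the 5p arm and 1 and 16 of the 3p arm. These hairpins stand out among many comparisons, and no correction for their number was made.

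**Figure D4:**
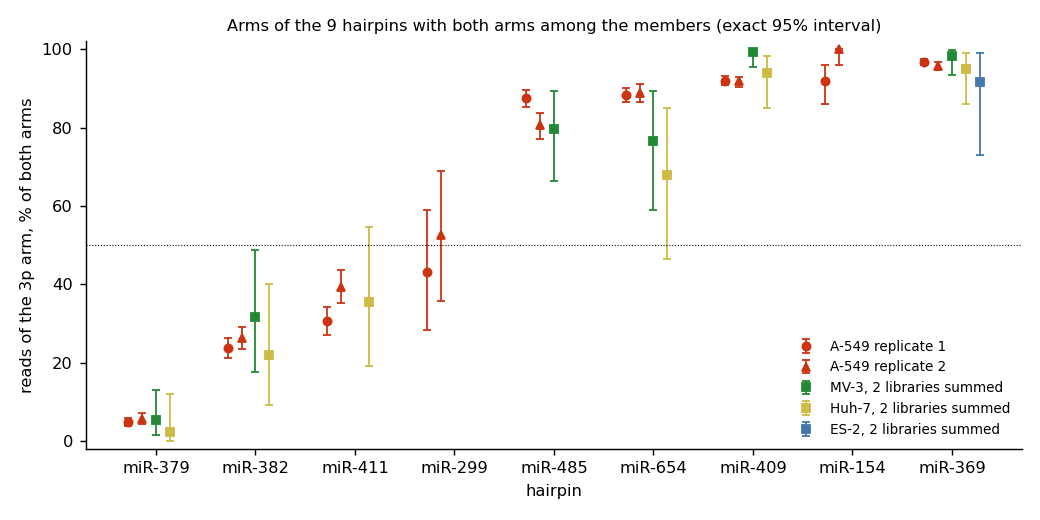
Reads of the 3p arm as a percentage of both arms for the 9 hairpins with both arms among the members, by A-549 library and, where at least 20 reads were found, by line with its 2 libraries summed. Error bars are exact 95% binomial intervals, and the dotted line marks equal arms. miR-379, miR-382 and miR-411 lie below 50% and miR-485, miR-654, miR-409, miR-154 and miR-369 above it.

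Outside A-549 the group was sparse but not absent. In ES-2 the 41 members together had 11 and 139 reads, in MV-3 339 and 445 and in Huh-7 64 and 500. In normalised CPM this was 7.64 and 71.4 in ES-2 (39.5 ± 45.1), 251 and 244 in MV-3 (248 ± 4.76) and 18.0 and 171 in Huh-7 (94.4 ± 108). The MV-3 libraries lay above those of ES-2 and Huh-7 and differed by a factor of 1.03, whereas replicate 2 exceeded replicate 1 by a factor of 9.35 in ES-2 and of 9.48 in Huh-7. The Huh-7 and ES-2 libraries therefore overlapped. The order rested on the scaling, since with library size alone Huh-7 replicate 2 had 291 reads per 1000000, next to 289 and 287 in MV-3.

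Members with more than 3 reads numbered 1 and 12 in the ES-2 libraries, 13 and 22 in MV-3, 5 and 23 in Huh-7 and 39 and 38 in A-549. Of the 1327 names with a read in any library, 33.4% and 38.4% had more than 3 reads in ES-2, 33.8% and 39.2% in MV-3, 51.6% and 50.6% in Huh-7 and 38.7% and 36.8% in A-549. In both libraries of a line this was 1 member in ES-2 (miR-369-3p), 13 in MV-3 and 5 in Huh-7. No read at all was found for 15 members in ES-2, 8 in MV-3 and 7 in Huh-7. miR-299-5p, miR-299-3p, miR-758-3p, miR-377-3p, miR-154-5p and miR-668-3p had 0 reads in all 6 libraries outside A-549.

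Reads outside A-549 fell mostly on the members that were high in A-549. miR-409-3p had 198, miR-369-3p 186, miR-543 and miR-487b-3p 153 each and miR-379-5p 120. Across the 41 members, log2(reads + 1) correlated with that of A-549 with Pearson's r of 0.81 and 0.80 in the MV-3 libraries, 0.58 and 0.87 in Huh-7 and 0.33 and 0.85 in ES-2. The points share a library and the cloning preference of each miRNA, and the lowest values belong to the libraries with 11 and 64 reads.

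By counting error alone, some members took a different share of the reads of the group than in A-549. Exact 95% intervals lay apart from those of A-549 for 12 of 41 members in MV-3 (5 higher, 7 lower), 9 in Huh-7 (5 higher, 4 lower) and 1 in ES-2 (miR-379-5p, lower), with both libraries summed and no correction for the number of comparisons. No like count over other miRNAs was made. Between the 2 A-549 libraries alone, 39.8% of all miRNAs with at least 10 reads differed by more than counting error. The counts are therefore a description, and no difference between lines is read from them. miR-495-3p was among those with a higher share in both MV-3 and Huh-7, at 5.23% (3.78 to 7.03%) and 5.50% (3.76 to 7.71%) against 2.98% (2.79 to 3.17%) in A-549. In the single libraries it held 6.78% and 4.04% in MV-3, 0% and 6.20% in Huh-7 and 3.26% and 2.60% in A-549.

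miR-381-3p took a lower share in both, with 0.255% (0.0309 to 0.918%) in MV-3 and 0.355% (0.0430 to 1.28%) in Huh-7 against 1.52% (1.39 to 1.66%) in A-549. This rested on 2 reads in MV-3 and 2 in Huh-7. miR-323a-3p went opposite ways, with 1.28% (0.613 to 2.33%) in MV-3 and 9.04% (6.81 to 11.7%) in Huh-7 against 3.36% (3.16 to 3.56%) in A-549. Its share was 0.59% and 1.80% in the MV-3 libraries, 21.9% and 7.40% in Huh-7 and 3.32% and 3.41% in A-549. It had 2 and 8 reads in MV-3 and 14 and 37 in Huh-7. For miR-409-3p the higher share in MV-3 came from replicate 1 with 23.3%, while replicate 2 had 9.21% beside 11.1% and 13.0% in A-549.

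The members were tested between ES-2, MV-3 and Huh-7, none of which chose them. Here 37 members passed the filter on low values and 528 miRNAs were tested with limma on log2(normalised CPM + 1), with Benjamini-Hochberg adjustment over all 528 and a call at an adjusted p below 0.01. On this scale the change of members with few reads is understated. The filter was applied over all 8 libraries, so members could pass it through A-549 alone, and 4 or 5 of the 37 had 0 reads in both lines of a pair. Counts and medians over the 37 are therefore a description. Comparisons with a line in common share its libraries.

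In MV-3 against ES-2, 2 members were called higher and 0 lower, while 11.6% of all tested miRNAs were called higher and 25.8% in either direction. miR-369-3p was higher in MV-3 with a log2 fold change of 2.26 (SE 0.43, adjusted p = 0.0070, limma), and both MV-3 libraries exceeded both ES-2 libraries. miR-485-3p was higher with a log2 fold change of 2.78 (SE 0.57, adjusted p = 0.00997, limma), on 1 and 3 reads in ES-2 and 16 and 27 in MV-3 (798 and 452 in A-549). Both calls were lost when any 1 of the 4 libraries was left out, with adjusted p from limma between 0.0278 and 0.0517 for miR-369-3p and between 0.0314 and 0.0649 for miR-485-3p. Over all alternatives the range was 6.27e-06 to 0.0517 for miR-369-3p and 0.000305 to 0.0649 for miR-485-3p.

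miR-409-3p had the largest fitted difference of this pair, 3.58 on the log2 scale, but with an SE of 1.39 it was not called (adjusted p = 0.0964, limma). Of the 37 tested members 4 had 0 reads in both lines, and among the other 33, 31 had a positive and 2 a negative log2 difference. The median over the 37 was 1.16, where the median over all 528 was 0 and 49.8% of all were above 0. An unadjusted p below 0.05 was found for 10 of the 37 (27.0%) and for 43.9% of all tested miRNAs.

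In Huh-7 against ES-2, 0 members were called by limma, and 0 had an unadjusted p below 0.05 (62.9% of all tested miRNAs), while 49.2% of all tested miRNAs were called in either direction. edgeR's quasi-likelihood test and DESeq2 on the recovered reads also called 0 members, beside 49.2% and 43.9% of all tested miRNAs. The median log2 difference of the members was 0.35, next to 0.34 over all tested miRNAs. For miR-369-3p the log2 difference was 0.35 with an SE of 0.43. Given the 9-fold gap between replicates in both lines, these results do not show that the lines are alike.

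In Huh-7 against MV-3, 1 member was called lower and 0 higher, beside 20.1% of all tested miRNAs called lower. The member was miR-369-3p, lower in Huh-7 with a log2 fold change of -1.91 (SE 0.43, adjusted p = 0.00853, limma). The range over all alternatives was 7.26e-06 to 0.0560, and the call was lost without MV-3 replicate 1, MV-3 replicate 2 or Huh-7 replicate 1. miR-485-3p, with 2 and 10 reads in Huh-7, had a log2 difference of -2.44 (SE 0.57, adjusted p = 0.0104, limma) and was not called. It was called by edgeR (adjusted p = 0.00329) and by DESeq2 (adjusted p = 1.8e-05), which called miR-369-3p too.

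In the pairs with A-549 the choice of members fixed the outcome, so the counts are no test of them. There, 37 of 37 were past the same threshold against ES-2 (23.7% of all tested were called higher), 33 of 37 against MV-3 (24.1% higher, 39.6% in either direction) and 37 of 37 against Huh-7 (28.6%). The median log2 differences were 6.51, 5.16 and 6.06, and they ran from 3.71 to 8.91 against ES-2. Those against MV-3 ran from 3.32 to 6.71 and those against Huh-7 from 3.71 to 7.92.

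The 2 A-549 libraries gave nearly the same picture of the group. Of 39 members with at least 10 reads in the 2 libraries together, 15 (38.5%) differed by more than counting error, where the exact 95% interval of the ratio left out 1, beside 39.8% of all 455 miRNAs with as many reads. The median log2 ratio of replicate 2 over replicate 1 was -0.06 for members and -0.03 for all. Ratios beyond 2-fold were found for 7.69% of members and 18.0% of all.

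Of the 15 members, 10 were lower and 5 higher in replicate 2. The largest gaps belonged to miR-154-5p (11 and 0 reads), miR-376b-3p (10 and 1 reads, log2 ratio -2.91, interval -8.35 to -0.10) and miR-487a-3p (40 and 14 reads, -1.10, interval -2.10 to -0.20). miR-655-3p followed with 122 and 46 reads (-0.997, interval -1.52 to -0.50). The highest ratio was that of miR-411-3p with 195 and 212 reads (0.53, interval 0.24 to 0.82).

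The closest were miR-323a-3p (0.02), miR-411-5p (-0.02) and miR-543 (-0.03). Among the 27 members of 3p arms 13 were beyond counting error, and among the 11 of 5p arms 2 were, with median log2 ratios of -0.13 and 0.05. For the hairpins with both arms, this moved the 3p share of miR-485 from 87.6% to 80.6% and that of miR-411 from 30.6% to 39.3% between the libraries.

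**Figure D5:**
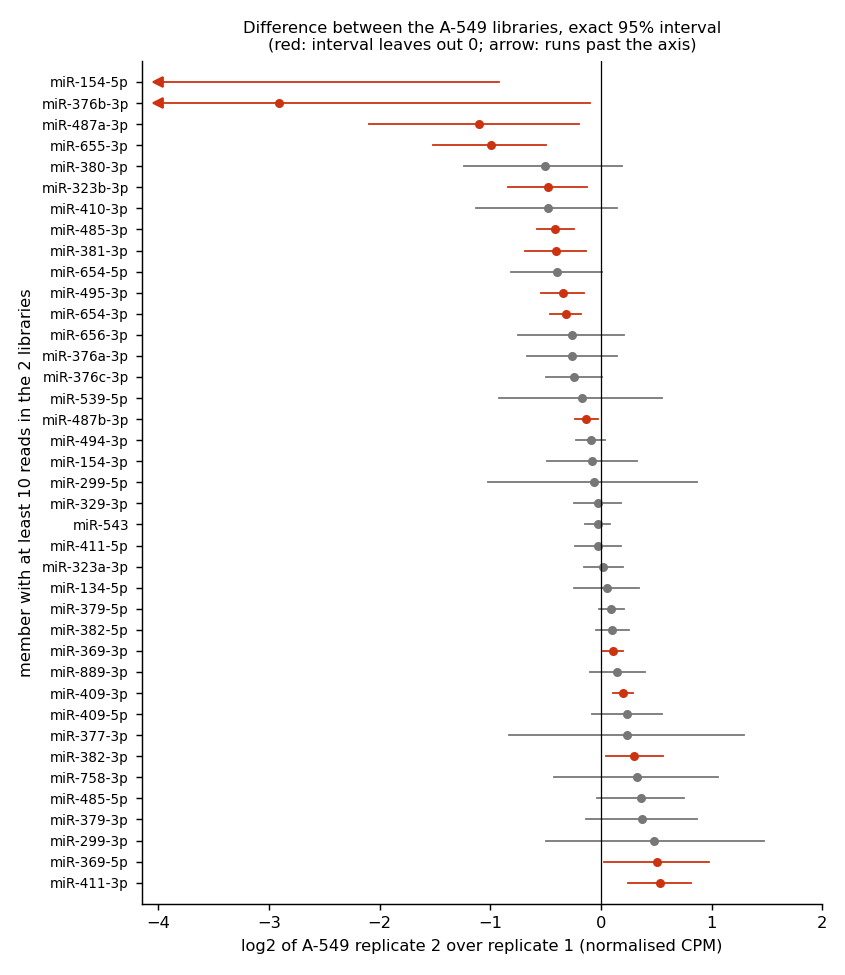
Log2 ratio of A-549 replicate 2 over replicate 1 for the 39 members with at least 10 reads in the 2 libraries together, with exact 95% intervals that cover counting error only. The 15 members in red have an interval that leaves out 0, and arrows mark intervals that run past the axis. Most members lie within 0.5 of 0, and the exceptions at the top have few reads in replicate 2.

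The replicates of ES-2 and Huh-7 behaved otherwise. In Huh-7, all 16 members with at least 10 reads in both libraries together were more than 2-fold higher in replicate 2, with a median log2 ratio of 4.18 after adding 0.5 reads, while 12.5% of all 624 miRNAs with as many reads were so, with a median of -0.11. In ES-2, the 4 members with as many reads were all higher in replicate 2 (median 4.51), beside a median of 0.06 over 436 miRNAs. In MV-3, 9 of 16 members were higher in replicate 2 (median 0.37, next to 0.03 over 426 miRNAs). The replicate gap of the members in ES-2 and Huh-7 was thus not shared by the typical miRNA of these libraries.

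Outside the locus, miR-122-5p had more reads in ES-2 replicate 2 than in replicate 1. Names high in A-549 and low in MV-3, picked after their values had been seen, went both ways. ES-2 reads were 109 and 149 for miR-192-5p, 1684 and 2624 for miR-224-5p, 69 and 85 for miR-335-3p and 197 and 302 for miR-452-5p. They did not rise for miR-34a-5p, miR-200a-3p, miR-200b-3p, miR-335-5p or miR-429. ES-2 replicate 2 was also the deeper library, with 2294994 reads against 1663181. miR-122-5p, which marks Huh-7, was read 6 and 57 times in ES-2, 53 and 48 times in MV-3 and 12 and 4 times in A-549. Its part in the gap between the ES-2 libraries was not tested. miR-34a-5p, picked after its values had been seen, had 707 and 553 reads in A-549, 6 and 1 in ES-2 and 619 and 446 in Huh-7. The epithelial miR-200b-3p had 2120 and 1716 reads in A-549, 13 and 13 in ES-2 and 6558 and 5442 in Huh-7. Their relation to the gap was not tested either.

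The same locus holds further miRNAs. Another 33 mature names of the cluster, mostly the partner arms of members, together had 266 and 153 reads in A-549, and 7 of them had none. miR-539-3p, miR-1185-1-3p and miR-377-5p passed the filter, and 0 of the 3 were called by limma or edgeR between ES-2, MV-3 and Huh-7. DESeq2 called 1 of them in Huh-7 against MV-3, the only pair in which limma gave an unadjusted p below 0.05, for 1 of the 3. All 3 had at most 8 reads in each library outside A-549 and passed the filter through A-549, so these counts are a description. Over all 528 tested miRNAs limma called 25.8% in MV-3 against ES-2, 49.2% in Huh-7 against ES-2 and 47.0% in Huh-7 against MV-3.

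Upstream of miR-379, on the MEG3 side, lies a second group with miR-493, miR-337, miR-665, miR-431, miR-433, miR-127, miR-432, miR-136 and miR-370, counted here as 17 mature names. In A-549 it had 3150 ± 204 normalised CPM, of which miR-493-5p made up 1675 ± 146. Its reads were 0 and 43 in ES-2, 8 and 4 in MV-3, 15 and 148 in Huh-7 and 4882 and 4028 in A-549. As for the members, replicate 2 was the higher one in ES-2 and Huh-7.

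Set against the members, the upstream group stood apart in MV-3, a comparison made after the values had been seen. It made up 21.1% (exact 95% interval 20.6 to 21.7%) and 22.9% (22.3 to 23.6%) of the reads of both groups in the A-549 libraries, 19.0% (11.0 to 29.4%) and 22.8% (19.7 to 26.3%) in Huh-7 and 23.6% (17.7 to 30.5%) in ES-2 replicate 2. In the MV-3 libraries it made up 2.31% (1.0 to 4.49%) and 0.891% (0.243 to 2.27%). The MV-3 intervals did not overlap those of these 5 libraries, while ES-2 replicate 1, with 0 of 11 reads, allowed up to 28.5%. Without the miR-493 and miR-369 hairpins the share, with both libraries of a line summed, was 12.3% in A-549 in place of 21.9%, 14.9% in Huh-7 in place of 22.4%, 17.1% in ES-2 in place of 22.3% and 1.46% in MV-3 in place of 1.51%. Both shares come from the same library, so scaling does not enter, and no test over lines was made with 2 libraries each.

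Of the 12 upstream names that passed the filter, 0 were called in MV-3 against ES-2 by limma, edgeR or DESeq2. By each of these tools, 0 had an unadjusted p below 0.05. Over all 528 tested miRNAs limma called 25.8%, and 43.9% had such a p. The filter was applied over all 8 libraries, so these names could pass it through A-549. They had at most 3 reads in each MV-3 library, so a call was barely possible and the 0 is a description. In Huh-7, miR-493-3p was higher than in ES-2 (log2 fold change 1.44, SE 0.28, adjusted p = 0.00460, limma) and higher than in MV-3 (1.44, SE 0.28, adjusted p = 0.00474), with 5 and 6 reads in Huh-7 and 0 in all 4 libraries of ES-2 and MV-3. Against lines at 0 this fitted value depends on the pseudocount, and edgeR and DESeq2 called 0 upstream names in either pair. miR-493-3p had 188 and 115 reads in A-549 and passed the filter through that line alone. Its p values are therefore a description and no test of it. As a description only, the median log2 difference of MV-3 against ES-2 was -0.16 for the upstream names and 1.16 for the members.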

How the data were processed

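Small RNA-seq libraries from total RNA of 4 lines, 2 per line, were grouped by their labels. Per the submitters' processing notes, the authors used cutadapt 1.14, Bowtie2 2.3.2 on hg38, featureCounts 1.5.3 and edgeR 3.18.1. How reads with several matches and strand were counted is not given in the sources used here, and this can shift reads between near-identical copies such as those of miR-329-3p and miR-376a-3p. The deposited values are a signal normalised by the authors, namely TMM-scaled CPM and not counts. Divided by what 1 read is worth in a library, all values (100% at a tolerance of 0.001) came out whole, and reads and depth (1173902 to 2670030) were recovered from it. A count of 0 allows up to 3 reads.

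Entries of a name were summed. limma 3.58.1 in R 4.3.3 with a mean-dependent prior was fitted to log2(normalised CPM + 1) over all 8 libraries, with 4 residual degrees of freedom, after filterByExpr (528 miRNAs). edgeR 4.0.16 and DESeq2 1.42.0 on the recovered reads served as alternatives, next to other scalings, filters, pseudocounts, thresholds and left-out libraries. The fit was tested on simulated data. Values in every library were given for the 8 highest and 3 lowest members in A-549, for members called between the other lines and for the 5 with the most reads outside A-549, and replicate ratios for the 3 largest and 3 smallest gaps. Members, lists and rules were chosen with earlier results of these data known. Replicate numbers were not taken to pair libraries across lines.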

Additional observations from a re-analysis of the deposited data

How the results depend on the processing

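Of the alternatives tried, the direction of each call between ES-2, MV-3 and Huh-7 stayed, but the number of calls did not. For MV-3 against ES-2 (2 members called), limma called 0 with a pseudocount of 0.1, 0 without a filter, 1 with RLE size factors and 6 at an adjusted p below 0.05. Of all tested miRNAs, 23.3%, 10.2%, 26.5% and 35.6% were called in these settings. For Huh-7 against MV-3 (1 called), limma called 0 with a pseudocount of 0.1, 0 without a filter and 0 with library size only. It called 2 with a filter of 10 normalised CPM and 5 at an adjusted p below 0.05. The shares of all tested miRNAs in these settings were 41.7%, 19.7%, 52.8%, 52.3% and 57.4%. edgeR and DESeq2 called 2 members each, beside 45.6% and 43.2% of all. For Huh-7 against ES-2 each alternative gave 0. In the pairs with A-549, the counts were fixed by the choice of members and bear on no result. There, a pseudocount of 0.1 left 15 members past the threshold for MV-3 (32.6% of all tested) and 18 for Huh-7 (43.2%). Leaving out 1 library of a pair lowered the share of all tested miRNAs called in every pair, so lost calls were not particular to the members. For MV-3 against ES-2 the log2 fold change was then 2.04 to 2.48 for miR-369-3p and 2.49 to 3.07 for miR-485-3p. For Huh-7 against MV-3 that of miR-369-3p was -2.53 to -1.29. The counts of A-549 then lay between 23 and 35 (ES-2), 21 and 25 (MV-3) and 22 and 35 (Huh-7), where the line left with 1 library was assumed to vary like the others.

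With the replicate number as a block, miR-369-3p and miR-485-3p were no longer called for MV-3 against ES-2 (adjusted p = 0.01002 and 0.0117, limma). There, 1 other member, miR-379-5p, was called, beside 24.4% of all tested miRNAs. For Huh-7 against MV-3, 0 members were called (miR-369-3p, adjusted p = 0.0112, limma), beside 46.2% of all. The labels give the numbers no shared origin, and deviations of same-numbered libraries correlated by -0.05 to 0.23 between lines, so the numbers were not read as pairs.

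The summed level in A-549 was 6695 with library size only, 12076 with RLE size factors and 10968 when copies of a name were not summed, and 11068 to 11214 in single libraries. In MV-3 it was 288 with library size only and 243 without summing copies, and 244 to 251 in single libraries. The single libraries gave 7.64 to 71.4 in ES-2 and 18.0 to 171 in Huh-7. Compared with TMM, library size only moved the median log2 difference of all tested miRNAs by 0.36 for MV-3 against ES-2, 0.74 for Huh-7 against ES-2, 0.41 for Huh-7 against MV-3, and by -0.28, -0.61 and -1.28 for A-549 against ES-2, MV-3 and Huh-7, and the calls over all miRNAs in Huh-7 against ES-2 went from 146 higher and 114 lower to 227 and 87.

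Detection rested on the floor. With at least 1 read, 4 and 26 members were found in ES-2, 27 in MV-3 replicate 1 and 15 in Huh-7 replicate 1. With more than 10 reads, 0 and 4 were found in ES-2, 12 in MV-3 replicate 2 and 2 and 14 in Huh-7. The 15 members beyond counting error between the A-549 libraries and the 5 hairpins with a higher 3p arm changed by less than 1.5-fold under every alternative run. The upstream share was computed, after the data had been seen, also without the miR-493 and miR-369 hairpins, and was then 12.3% in A-549 and 14.9% in Huh-7. In single libraries it spanned 21.1 to 22.9% in A-549, 19.0 to 22.8% in Huh-7, 0.891 to 2.31% in MV-3 and 0 to 23.6% in ES-2. The causes of these shifts were not tested.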
